A study of Sus scrofa domesticus with 4 samples.

Results

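The genes described here are 8 components and regulators of the complement system, followed in endometrium, the lining of the uterus, of pregnant gilts. They were chosen as the non-control probes whose RefSeq accession belongs to C1QA, C1QB, C1QC, C1S, C3, CFB, CD46 or CD59. All 8 genes are on the array, with 13 of its 43603 non-control probes, and 5 of them, with 10 probes, could be tested for a response to orexin B. Over the whole array, 13783 probes were tested, and 3637 of these carry a gene name.

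Explants from the middle of the uterine horns of 4 mature Large White x Polish Landrace gilts, aged 7 to 8 months and on days 15 to 16 of gestation, were compared under 2 conditions. The treated explants were cultured for 24 h with 10 nM orexin B, a neuropeptide also called hypocretin 2, and the untreated explants for the same 24 h without it. Both had first been kept for 2 h in culture medium. Each of the 4 two-colour microarrays carried treated RNA in one dye and untreated RNA in the other. Channel by channel, the labels place treated RNA in Cy5 for arrays 1 and 3, and in Cy3 for arrays 2 and 4. They speak of 4 animals and of cultures in duplicate, without saying which animal went to which array. The 4 arrays therefore served as replicates, and p-values measure the spread between them. An explant holds all cell types of the tissue, so fewer cells of a type and less RNA per cell cannot be told apart in any value below.

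Complement is a set of blood and tissue proteins that mark particles for uptake by phagocytes and can open pores in membranes. In the classical pathway, C1q binds antibody or other ligands and the attached protease C1s cuts C4 and C2, while in the alternative pathway factor B joins activated C3 to form a further C3-cutting enzyme. All routes meet at C3. CD46 (membrane cofactor protein) and CD59 (which blocks the membrane attack complex) protect the body's own cells, and in pregnancy such regulators lie at the border between maternal tissue and conceptus.

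Orexin B gave no ratio that passed the test for any of these genes. Limma called 0 of the 10 tested complement probes at an adjusted p under 0.05, and called 0 of all 13783 probes, a share of 0% in either direction. At an unadjusted p under 0.05 there were 0 of 10 complement probes, beside 495 probes, or 3.59%, of all those tested. The adjusted p of every tested complement probe was 0.999, and their unadjusted p ran from 0.239 to 0.887. Their ratios were small, between -0.12 and 0.22 on the log2 scale of treated over untreated. In contrast to the treatment ratio, the dye term of the same fit was large for C3, whose probes all gave more Cy5 than Cy3 signal on every array that measured them.

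By the scanner's own call, the Cy5 channel was well above background at 82.4% to 86.7% of the 43803 spots on arrays 1, 3 and 4, but at 46.8% on array 2, the only array with a scan day of its own. For Cy3 that share lay between 27.8% and 36.2%, and 0 spots were saturated. Markers of the tissue were measured: 6 of the 6 listed epithelial genes on the array passed the filter, with a median ratio of -0.19, and so did 3 of 3 fibroblast genes (0.20), 3 of 3 smooth muscle genes (-0.21), 3 of 3 endothelial genes (-0.34) and 3 of 7 T and NK cell genes (-0.27). Of the blood genes TF passed it (-0.33) and ALB did not. Limma called 0 of these markers, and their part in the complement values was not tested. The precision is limited by the 4 arrays. A signal is given as normalised log2 intensity, and no level of one probe is set against that of another, since brightness also depends on the probe's own sequence and on the dye. The abundance of the pathways relative to each other was therefore not compared, and each probe is compared with itself between arrays and conditions. Between arrays 1 and 3 and arrays 2 and 4, the dye of each condition also changed.

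**Figure D1:**
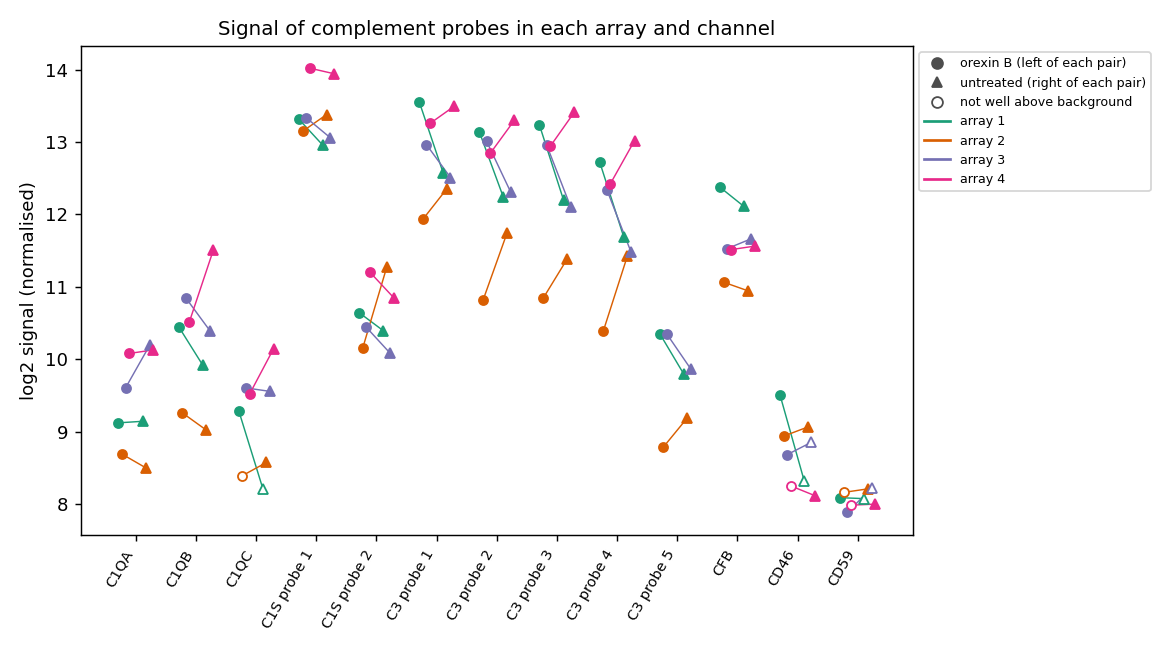
Normalised log2 signal of the 13 complement probes on each array, with explants treated with orexin B (circles, left) joined to the untreated explants of the same array (triangles, right). Open symbols mark channels not well above background, and heights are not comparable between probes. The lines of the C3 probes run down to the right on arrays 1 and 3 and up on arrays 2 and 4.

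The recognition part of the classical pathway was measured by 1 probe for each C1q chain. C1q is built from 3 kinds of chain, and the RefSeq table of the pig assembly Sscrofa11.1 lists their genes next to each other in the order C1QA, C1QC and C1QB. For C1QA the signal in treated explants was 9.12, 8.69, 9.61 and 10.08 on arrays 1 to 4, against 9.14, 8.50, 10.19 and 10.13 in untreated explants. The conditions overlapped throughout, and array 2 was lowest in both. The log2 ratios of treated over untreated were -0.02, 0.19, -0.59 and -0.05, which the fit combined to -0.12 ± 0.19 (moderated SE, n = 4, 95% interval -0.56 to 0.32). A treated level down to 0.679 times or up to 1.25 times the untreated one lies within that interval. Without array 3, the lowest of the 4, the fitted ratio was 0.025.

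C1QB spread more between arrays than between conditions. Its signal was 10.45, 9.26, 10.85 and 10.52 in treated explants and 9.92, 9.02, 10.39 and 11.51 in untreated explants. Treated RNA was the higher on arrays 1 to 3, with ratios of 0.53, 0.24 and 0.45, and the lower on array 4, with a ratio of -0.995. The fitted ratio was 0.06 ± 0.24 (n = 4, 95% interval -0.50 to 0.61). Without array 2 it was -0.25, so the direction of this small value rests on that array.

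C1QC did not pass the filter, being well above background in 3 of 4 treated channels and in 3 of 4 untreated ones. Its ratios were 1.07, -0.18, 0.05 and -0.63, so the arrays did not share a sign. The untreated channel of array 1 and the treated channel of array 2 were those not well above background. The ratios of 1.07 and -0.18 thus each rest on a dim channel. In the fit without a filter the C1QC ratio was 0.08 (95% interval -0.43 to 0.58). The 3 chains did not move together on any array except array 4, where all of their ratios were below 0.

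In untreated explants the C1q chains differed between arrays by more than most probes. The range over the 4 arrays was 1.70 for C1QA, 2.49 for C1QB and 1.93 for C1QC on the log2 scale, beside a median range of 0.88 over all tested probes. Relative to its own mean, each chain was low on arrays 1 and 2 (C1QA at -0.35 and -0.99, C1QB at -0.29 and -1.19, C1QC at -0.91 and -0.55). Each was high on arrays 3 and 4 (C1QA at 0.70 and 0.64, C1QB at 0.18 and 1.30, C1QC at 0.43 and 1.02). The untreated C1QC channel of array 1 was not well above background, and the range of C1QC rests on it. Animal, array and, for array 2, scan day cannot be told apart in these differences between arrays. The dye differed too, since untreated RNA was in Cy3 on arrays 1 and 3 and in Cy5 on arrays 2 and 4. The dye term was -0.19 for C1QA, 0.435 for C1QB and, without a filter, 0.48 for C1QC. The part of the dye in these ranges was not tested.

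Macrophages are the best known source of C1q in tissues, and their markers were read on the same arrays. Of 13 listed macrophage and myeloid genes 9 are on the array and 7 were tested. The mean log2 signal of these 7 was 10.11, 10.05, 10.47 and 10.55 in treated explants and 10.25, 10.25, 10.89 and 11.45 in untreated explants, so the untreated mean was lower on arrays 1 and 2 than on arrays 3 and 4. Of the single markers 4 of 7 (AIF1, CD163, FCER1G and TYROBP) lay below their own mean on arrays 1 and 2 and above it on arrays 3 and 4, as the C1q chains did. CD163, a scavenger receptor of macrophages, lay at -0.49, -1.39, 0.34 and 1.55 from its own mean in untreated explants. The other 3 did not share the order. CD86, a costimulatory molecule, lay at -0.68, 0.48, -0.18 and 0.38, and LYZ, lysozyme, at 0.14, -0.68, 0.39 and 0.15. CD14, a receptor for bacterial lipopolysaccharide, lay between -0.08 and 0.16. The order was not particular to macrophage markers, since the 3 tested fibroblast genes had untreated medians of -0.24, -0.72, 0.15 and 1.02 from their own means.

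With orexin B, 6 of the 7 macrophage markers had a ratio below 0, beside 46.9% of all tested probes, with a median of -0.42, and CD163 was above 0 at 0.18. Limma called 0 of them. The markers were listed with earlier results of these data known, so their counts beside the shares of all probes are a description only. At an unadjusted p under 0.05 there were 2 of 7, CD86 at -0.68 ± 0.19 and LYZ at -0.68 ± 0.25, beside 3.59% of all tested probes. The sign was the same on 4 of 4 arrays for 3 of the 7, beside 7.3% of all. The marker medians by array were -0.21, -0.24, -0.46 and -1.16. The C1q ratios on array 4 (-0.05, -0.995 and -0.63) stood beside that lowest marker median, while on arrays 1 to 3 C1QB was above 0. CD14 went against this median, with 0.31 on array 4 and -0.64, -0.33 and -1.04 on arrays 1 to 3. Array 4 was also the lowest for the 3 tested fibroblast genes, with a median ratio of -0.67. The part of the macrophage markers in the C1q values was not tested, nor was the difference between them.

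**Figure D2:**
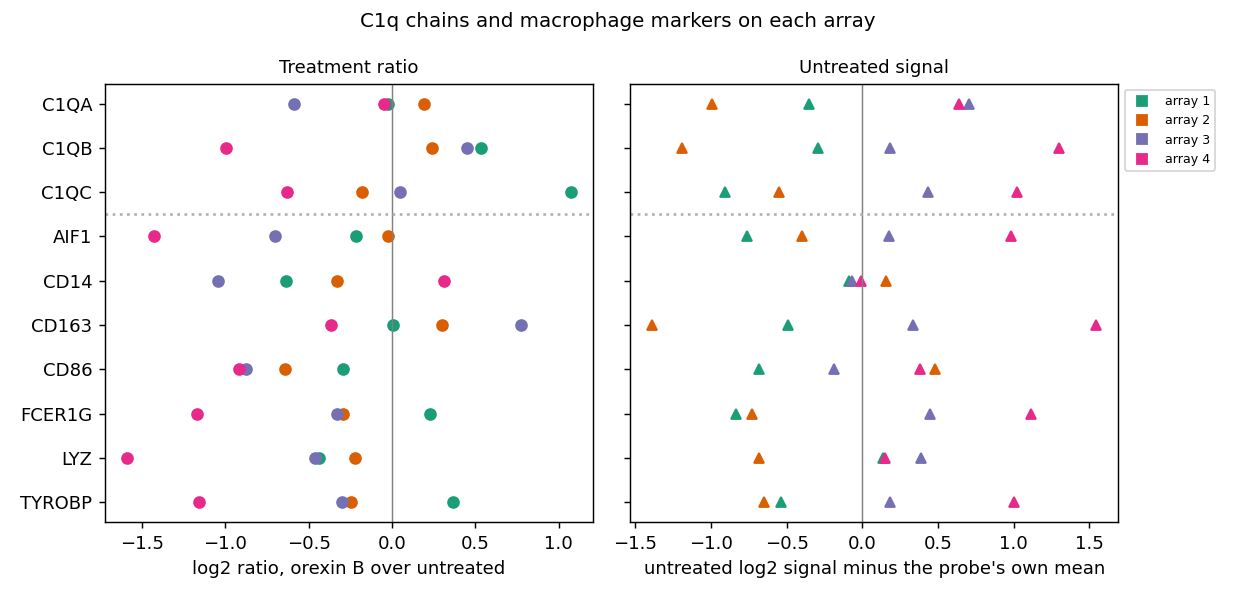
The 3 C1q chains (above the dotted line) and the 7 tested macrophage markers on each array. The left panel gives the log2 ratio of orexin B over untreated, and the right panel the untreated log2 signal minus the probe's own mean over the 4 arrays. In the right panel the 3 chains lie below 0 on arrays 1 and 2 and above 0 on arrays 3 and 4, and in the left panel array 4 lies below 0 for all of them.

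C1S, which encodes the protease that cuts C4 and C2, was measured by 2 probes. On the brighter one (A_72_P088781) treated explants had 13.32, 13.15, 13.34 and 14.02 and untreated explants 12.96, 13.38, 13.06 and 13.95. Treated RNA was higher on arrays 1, 3 and 4 and lower on array 2, with ratios of 0.36, -0.23, 0.28 and 0.08. The fitted ratio was 0.12 ± 0.17 (n = 4, 95% interval -0.29 to 0.53). The dimmer probe (A_72_P442680) had ratios of 0.25, -1.12, 0.36 and 0.36 and a fitted ratio of -0.04 ± 0.26. Both probes had the same sign on each array, but array 2 alone set the size of the dimmer probe's spread.

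C3, the protein at which all pathways meet, had 5 probes, and every one was well above background in all 8 channels. For the brightest (A_72_P165601) the signal was 13.56, 11.93, 12.97 and 13.26 in treated explants and 12.57, 12.36, 12.51 and 13.49 in untreated explants. Treated RNA was higher on arrays 1 and 3 and lower on arrays 2 and 4, with ratios of 0.99, -0.42, 0.46 and -0.24. The other probes gave the same signs. Over the 5 probes the ratio lay between 0.56 and 1.04 on array 1, between -1.04 and -0.41 on array 2 and between 0.46 and 0.86 on array 3. On array 4 it lay between -0.59 and -0.24 over the 4 probes measured there, since the spot of A_72_P443993 was an outlier and was left out.

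These signs follow the dye and not the treatment as labelled. The fitted treatment ratio of the brightest C3 probe was 0.20 ± 0.18 (n = 4, 95% interval -0.24 to 0.63), and those of all 5 probes lay between 0.05 and 0.22. The dye term, in log2 of Cy5 over Cy3, lay between 0.46 and 0.88 for the same 5 probes. Its unadjusted limma p ran from 0.00170 to 0.0818, with 4 of the 5 under 0.05, beside 14.1% of all tested probes. After adjustment limma called 0 of 13783 dye terms (0%), with a smallest adjusted p of 0.290. That value is shared by C3 probes A_72_P737664, A_72_P745528 and A_72_P742730 and by probes of other genes. Among these is a probe of the smooth muscle gene ACTA2, with a dye term of 1.26 and an unadjusted limma p of 0.00121. The 5 probes read the same transcripts in the same hybridisations and are not replicates.

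The orientation of the arrays decides what this C3 signal is called. The labelling text that all samples share can be read as treated RNA in Cy5 on every array. Under that reading, in which dye and treatment cannot be told apart, the brightest C3 probe would stand at 0.53 in treated explants (95% interval 0.11 to 0.94, limma adjusted p = 0.269). Every other value here rests on the channel labels, whose orientation is also that of the authors' value table: its columns for arrays 2 and 4 run opposite to the scanner's Cy5 over Cy3.

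**Figure D3:**
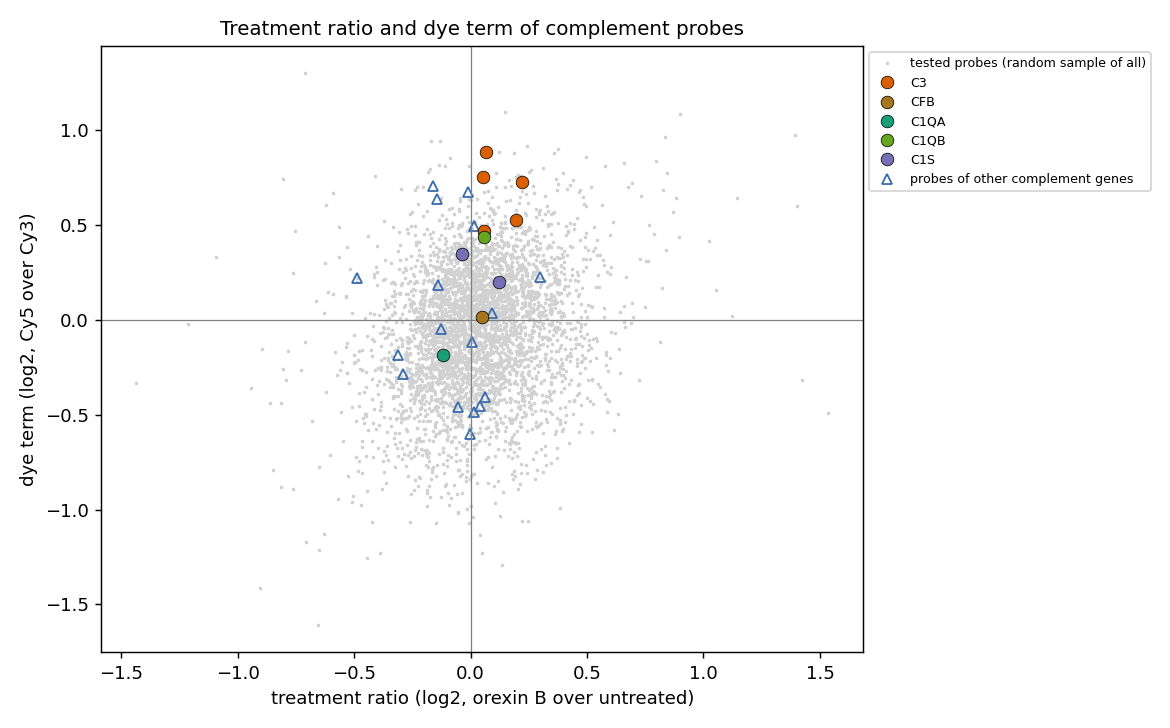
Treatment ratio (horizontal, log2 of orexin B over untreated) against dye term (vertical, log2 of Cy5 over Cy3) from the same limma fit. Filled circles are the 10 tested probes of the complement genes named in the legend, open triangles are the 17 tested probes of the wider complement list, and grey dots are a random 4000 of the tested probes. The 5 C3 probes lie between 0.46 and 0.88 on the vertical axis and between 0.05 and 0.22 on the horizontal one.

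CFB, or factor B, the serine protease that drives the alternative pathway, had 1 probe, well above background in all channels. Its signal was 12.38, 11.06, 11.53 and 11.51 in treated explants, against 12.11, 10.95, 11.66 and 11.56 in untreated explants. Within each array the conditions lay close together, with ratios of 0.27, 0.12, -0.14 and -0.05, whereas the arrays differed by 1.16 in untreated explants. The fitted ratio was 0.05 ± 0.18 (n = 4, 95% interval -0.37 to 0.47). Without array 1 it was -0.051. The interval of all 4 arrays runs from 0.774 to 1.38 times the untreated level. The dye term of CFB was 0.02, so it did not share the dye pattern of C3, though the difference between the 2 genes was not tested.

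The membrane regulators could not be tested. CD46 was well above background in 3 of 4 treated and 2 of 4 untreated channels, with ratios of 1.18, -0.13, -0.17 and 0.13. Its value on array 1 stands alone, and there the untreated channel was not well above background. CD59 was well above background in 2 of 4 channels of each condition, all of them Cy5, and in 0 Cy3 channels. Its ratios of 0.01, -0.05, -0.34 and -0.01 thus compare, on every array, a Cy5 signal with a Cy3 signal not well above background. In the fit without a filter CD46 stood at 0.25 (95% interval -0.33 to 0.84) and CD59 at -0.10 (-0.42 to 0.22). Neither value shows whether the regulators respond.

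**Figure D4:**
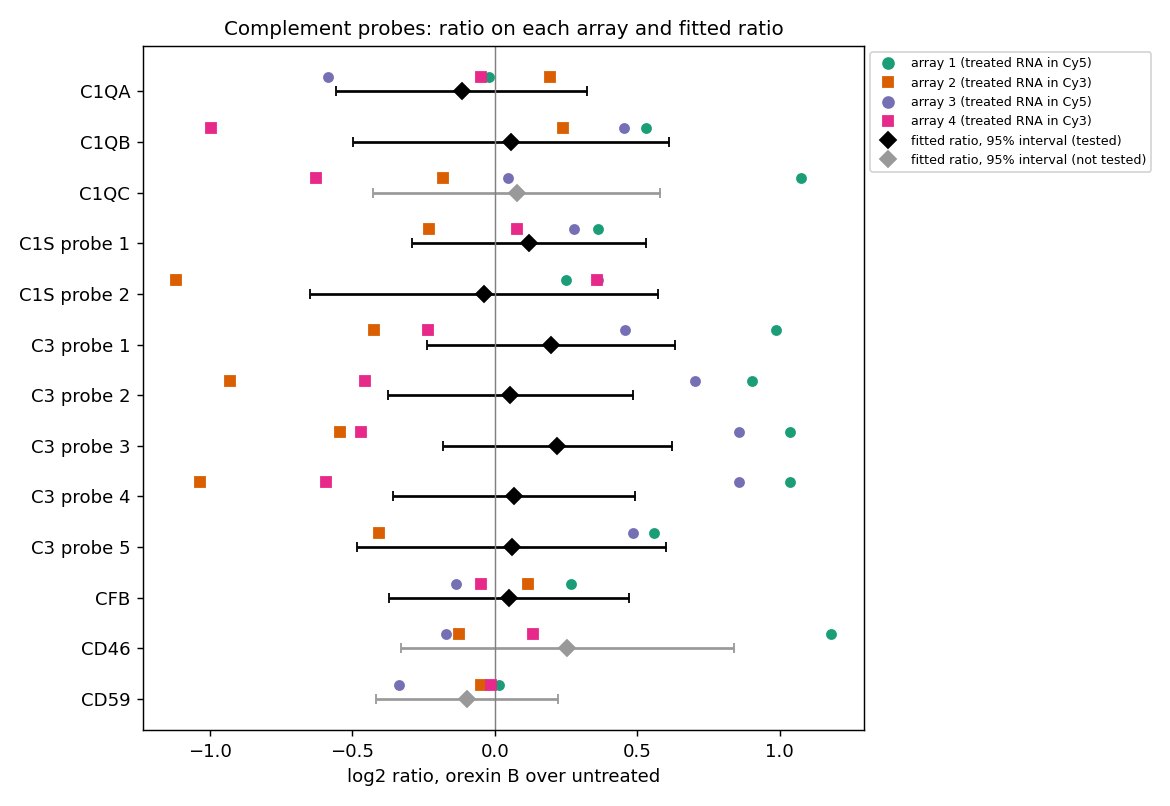
Log2 ratio of orexin B over untreated for each of the 13 probes, as single arrays (circles where treated RNA was in Cy5, squares where it was in Cy3) and as the fitted ratio with its 95% interval (diamonds, grey where the probe did not pass the filter). Every interval includes 0. For C3 the circles lie right of 0 and the squares left of it.

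Set side by side, the arms of the pathway had fitted medians near 0. The 3 tested classical genes, each by its brightest probe, had a median of 0.06, with 2 above 0 and 1 below, and without array 2 it was -0.18. The 2 genes of the alternative arm, C3 and CFB, had a median of 0.12, with both above 0. C3 is shared by all pathways, so of these genes only CFB, at 0.05, is particular to the arm. The median of all 13783 tested probes was 0.02, and 53.1% of them were above 0. By array, the classical medians were 0.36, 0.19, 0.28 and -0.05 and the alternative ones 0.63, -0.15, 0.16 and -0.14. Both arms were thus highest on array 1. Of the 10 tested probes 0 had the same sign on 4 of 4 arrays, beside 7.3% of all tested probes. In 9 of the 10 the dye term was larger in size than the treatment ratio, beside 64% of all, and in 9 of the 10 it was above 0, beside 44.5% of all. Of those 10 probes 5 are of C3, so these counts lean on 1 gene. By gene, the dye term was the larger in 4 of 5, and 1 of 5, C3, had a dye term with an unadjusted p under 0.05. No test compared the arms.

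The wider pathway gave no call either. A list of 50 further symbols was read, of which 25 are on the array under that name and 10 were tested. Limma called 0 of them, and 0 had an unadjusted p under 0.05. Of the 10, 4 had a ratio above 0 and 6 below, with a median of -0.06. C2 and C4A, the substrates of C1s, stood at -0.13 ± 0.17 and 0.09 ± 0.17. The other tested C4A probe was at -0.01. Its dye term of 0.67 resembled those of C3, whereas that of the brighter C4A probe was 0.03.

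Soluble regulators lay on both sides of 0. C4BPA, a chain of the C4b-binding protein, stood at 0.30 ± 0.24, with -0.57 on array 4 and values from 0.45 to 0.72 on the others. SERPING1, the inhibitor of C1s, stood at 0.02 ± 0.17 with a dye term of 0.49. Its other tested probes were at -0.14 and -0.15, with dye terms of 0.18 and 0.63. CLU, or clusterin, a soluble inhibitor of the membrane attack complex, stood at -0.31 ± 0.25. CD55, the membrane regulator that breaks up C3-cutting enzymes, was at 0.00 ± 0.24, with ratios of 0.29, -0.35, -0.52 and 0.59.

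The 3 tested genes of the receptor group were all below 0, beside 46.9% of all tested probes. ITGB2, the beta chain of complement receptor integrins of leukocytes, stood at -0.49 ± 0.22 (95% interval -0.997 to 0.02), and its ratios were -0.20, -0.20, -0.33 and -1.22. It was the 1 gene of the 10 with the same sign on 4 of 4 arrays, beside 7.3% of all tested probes. CALR, calreticulin, a partner of C1q at the cell surface and otherwise a chaperone, stood at -0.29 ± 0.17. C5AR1, the receptor for the C5 fragment C5a, stood at -0.16 ± 0.22, with 0.92, -0.45, 0.16 and -1.27 on the arrays. ITGB2 is a leukocyte gene, and on array 4, where it was lowest, 6 of the 7 macrophage markers also had their lowest ratio, while CD14 had its highest. Among the other marker groups, only the fibroblast genes also had their lowest median on array 4, at -0.67. The genes of T and NK cells, also leukocytes, had their lowest median on array 2, at -0.65, and stood at -0.61 on array 4. The epithelial genes had their highest median there, at 0.52. The part of these markers in the ITGB2 value was not tested.

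**Figure D5:**
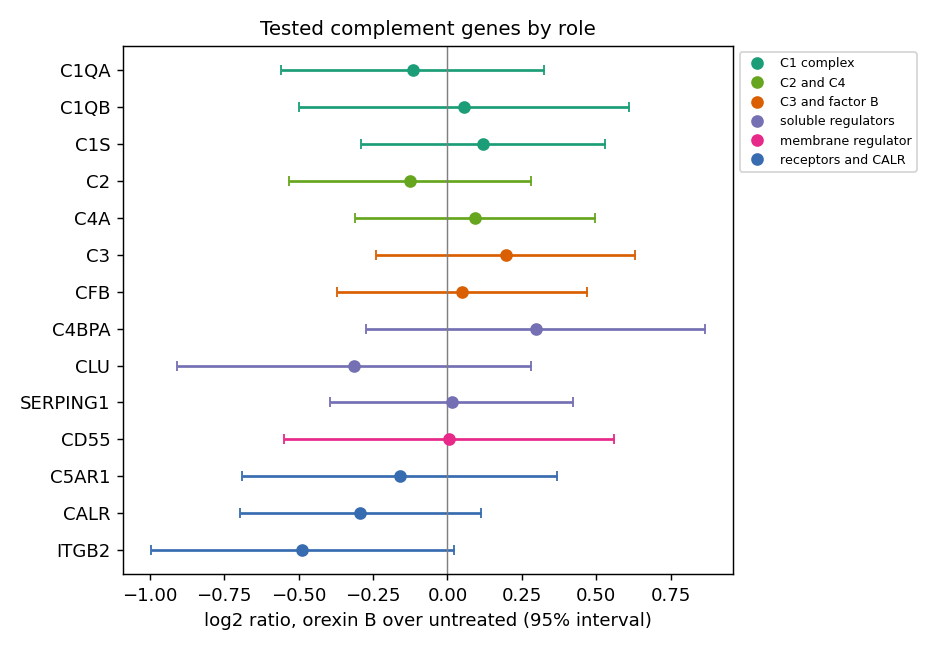
Fitted log2 ratio of orexin B over untreated with its 95% interval for 14 tested complement genes, each by its brightest tested probe and grouped by role. All 14 intervals include 0, from C4BPA at 0.30 to ITGB2 at -0.49.

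Genes of the terminal pathway, which builds the membrane pore, could not be tested. All 7 of them, C5, C6, C7, C8A, C8B, C8G and C9, are on the array and none passed the filter. The lectin pathway genes MBL1, MBL2, FCN1, FCN2, MASP1 and MASP2 did not pass it either. One C5 probe (A_72_P686307), chosen after its values were seen, had ratios of -0.43, -0.40, -0.58 and -0.43. It was above background in 2 treated and 1 untreated channels, and in the limma fit without a filter its ratio was -0.46 ± 0.12 (adjusted p = 0.926). The other C5 probe was at 0.04.

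The nearest patterns over the 4 arrays were taken among 1622 named genes outside complement, by the root mean square difference of the 4 ratios. For C3, which had the highest fitted ratio of the tested members, they were IGFBP7 (0.08), SLC25A6 (0.08) and SCD (0.09). IGFBP7 had ratios of 0.92, -0.42, 0.35 and -0.33, so it shared the alternation with the dye. For C1QA, with the lowest fitted ratio, they included NCK2 (0.06) and DHX58 (0.10). With 4 arrays such likeness is a description only.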

How the data were processed

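Spot and local background intensities (median pixel values, Cy3 and Cy5) and a log10 ratio of Cy5 over Cy3 were deposited as made by Agilent Feature Extraction 10.7.3.1, per the file headers. The authors' deposited value table holds log2 ratios. It is uncentred, with column medians of 0.18, 0.29, 0.01 and 0.03, and correlates at 1 or -1 with the scanner ratio, which gave its scale and direction. How the authors filtered is not given in the sources used here.

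In limma 3.58.1 (R 4.3.3), the normexp correction (offset 50) was followed by loess within each array, in which control spots and those flagged as outliers had weight 0. Median in place of mean signals were used because the files' columns hold medians. Levels were further scaled by Aquantile. A probe was tested if well above background in all 4 channels of at least 1 condition. For every probe lmFit and eBayes fitted a treatment and a dye term, with 2 residual and 5.09 prior degrees of freedom. Two-sided p-values were adjusted by Benjamini-Hochberg over all tested probes (threshold 0.05), and ± is the moderated SE. The fit of 215 tested probes rested on fewer than 4 arrays. A gene stands by its brightest tested probe. The fit was also run on simulated data with capped noise, so that run does not show how well it finds changes in these data.

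Names came through the RefSeq accessions and the Sscrofa11.1 gene table, which matched 6700 probes of 3029 genes; no build is named in the array files, so no coordinates are given. Named were all members, every tested gene of the wider complement list and the 3 nearest genes of the highest and lowest member, except 1 gene of each kind that is not reported here. Members and lists were chosen with earlier results of these data known. The array correlations of Cy5 over Cy3 over tested probes were 0.35 (arrays 1 and 3) and -0.03 (2 and 4) for pairs of like orientation, and 0.38 (1 and 2), 0.17 (1 and 4), -0.05 (2 and 3) and 0.27 (3 and 4) for pairs of opposite orientation. Alternatives were the scanner's log ratio, an offset of 16, median centring, other filters, no dye term, all arrays read as treated in Cy5, the authors' table, leaving out each array and averaging a gene's probes.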

Additional observations from a re-analysis of the deposited data

Results flagged for a closer look

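Of 49 sets of 4 array values examined, 6 had an array that stood far from the other 3 by Dixon's test at the 95% level, which divides its gap to the nearest value by the whole range. Chance flags about 1 in 20 such sets, and probes of 1 gene are not independent.

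The dimmer C1S probe (A_72_P442680) had a gap share of 0.923 in its treatment ratio, set by array 2 at -1.12 beside 0.25 to 0.36 on the others. ITGB2 had 0.867, set by array 4 at -1.22. For C3 the treated level was set apart by array 2 on 3 probes, with 0.872 for A_72_P737664, 0.878 for A_72_P745528 and 0.835 for A_72_P742730. On the last of these, treated explants had 12.73, 10.39, 12.34 and 12.43. Its untreated level had 0.832, set by array 4 at 13.02 beside 11.42 to 11.69 on arrays 1 to 3.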

How the results depend on the processing

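The 5 tested genes gave 65 ratios under the alternatives, of which 57 kept their sign and 8 turned, and none passed (lowest limma adjusted p = 0.269, for C3 with all arrays read as treated in Cy5). With the other filters and with no dye term the ratios were those of the main fit, so no sign could turn there. The authors' value table repeated the scanner's ratios. The count of kept signs is therefore no measure of stability. C3 stayed between 0.06 and 0.57 and C1S between 0.04 and 0.45. With the scanner's log ratio, and likewise with the authors' value table, C1QA was 0.080 and CFB -0.016. Median centring moved all tested probes to 0.28. Under it C1QA was 0.10, the classical median 0.36, the alternative median 0.50 and the wider list 0.19, which relative to all tested probes are -0.18, 0.08, 0.22 and -0.09. When an array was left out, the array then alone in its dye orientation weighed as much as the remaining pair together. Leaving out each array gave -0.26 to 0.025 for C1QA, -0.25 to 0.37 for C1QB, -0.051 to 0.15 for CFB, -0.18 to 0.077 for the classical median and 0.01 to 0.24 for the alternative median. It gave 0 to 12 probes called higher and 0 to 3 lower over the array. The calls came without array 2, when 15 probes passed and 0 of them were of complement genes. The cause was not tested. A test on the mean of each gene's probes called 2 lower and 0 higher. C1QC, CD46 and CD59 have values with no filter only, and the median of the membrane regulators was not run for want of a tested gene. The ratios reported are already paired within each array. Dim signals in Cy3 limit what is measured, above all for the membrane regulators.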
